A study of Rattus norvegicus with 5 samples.

Results

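The DPN experiment asks what a beta-selective estrogen receptor agonist adds to hypoxia in rat vascular smooth muscle cells. The measure was the deposited log2 value of one library minus that of another, both of cells held under hypoxia for 24 h, one pretreated with 0.1 µM DPN and one with no compound named. The authors deposited log2 of an adjusted read count plus 1, and levels below are adjusted read counts with the log2 undone. Of the 17048 rows in each table, 8872 had a mean adjusted read count of 100 or more over the 5 libraries of the series, and 8807 genes remained after 58 repeat rows of a symbol and 7 neighbouring rows (Dennd5a, Nrip3, Tmem9b, Ascl3, LOC499240, Akip1 and St5) had been left out. All of the 8807 are members, whether or not they differed. At the edge of the filter, Zfp418 entered with a mean of 100.03 (difference 0.07) and Acvr1b was left out with 99.92 (difference -0.38).

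The other 3 libraries are a control labelled CON, hypoxia for 24 h after In-Cl (0.1 µM), and hypoxia for 24 h after E2 (10 nM). The labels give the same source for all 5, vascular smooth muscle cells grown on coated plastic, and name no strain, sex, passage or vessel. In-Cl is written out as Indazole-Cl in the series title. DPN and In-Cl were given at the same dose and E2 at a lower one. Each condition is 1 library. Differences therefore have no replicate check and were not tested, and every statement compares libraries, not conditions.

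Estrogen acts through receptors alpha (Esr1) and beta (Esr2), nuclear receptors that bind DNA or tether to other transcription factors, and through the membrane receptor Gper1. DPN is diarylpropionitrile, a nonsteroidal ligand that prefers receptor beta, and E2 is estradiol, the natural hormone. In the vessel wall, smooth muscle cells either hold a contractile programme of actin, myosin and their regulators or shift to making matrix and dividing, and prostaglandins made by cyclooxygenases are among the signals that set vessel tone.

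The libraries held between about 20200000 reads (E2) and 24400000 reads (control), with about 22100000 in hypoxia and 21000000 with DPN. Smooth muscle genes were abundant in all 5: the 32 contractile genes measured summed to between 502340 (In-Cl) and 617042 (hypoxia) adjusted read counts. The 17 leukocyte markers summed to between 225.1 and 290.1. The 18 endothelial markers summed to between 1888 (In-Cl) and 2275 (control), with Eng highest (mean 1258). The endothelial cadherin Cdh5 had 0 reads in every library. Fibroblast markers summed to between 10224 and 14283, with Gsn highest (mean 7989). Striated muscle markers summed to between 9565 and 13428, with Tnnc1 highest (mean 4657). Only 5 of the 14 fibroblast and 7 of the 25 striated muscle markers had a mean of 100 or more. The receptors themselves lay far under the filter. For Esr2 there were about 4 reads in the control library, 14 in hypoxia, 22 with DPN (exact Poisson interval 13.8 to 33.3), 15 with In-Cl and 6 with E2, and the intervals of hypoxia (7.7 to 23.5) and DPN overlapped. Esr1 had 9 reads in hypoxia and 3 with DPN, and Gper1 had 7 and 6.

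The DPN and hypoxia libraries were close. The median difference over the 8807 genes was 0.002 on the log2 scale, 89.0% of genes lay within 1.2-fold, and the middle 95% lay between -0.34 and 0.36. At least 1.5-fold higher with DPN were 38 genes (0.431% of those kept), and at least 1.5-fold lower were 29 (0.329%). At 2-fold, only Figf was higher (0.0114%) and 4 genes were lower (0.0454%), Myh8, Myh4 and the uncharacterised RGD1309808 and RGD1305298 (the last 2 named after their values were seen). Most of these genes were weakly expressed: 29 of the 38 and 24 of the 29 had a mean under 300, where the spread of the differences over genes was widest (SD over 2072 genes 0.256, against 0.105 over the 1015 genes above 3000). None of the 1015 most abundant genes was 1.5-fold different in either direction.

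**Figure D1:**
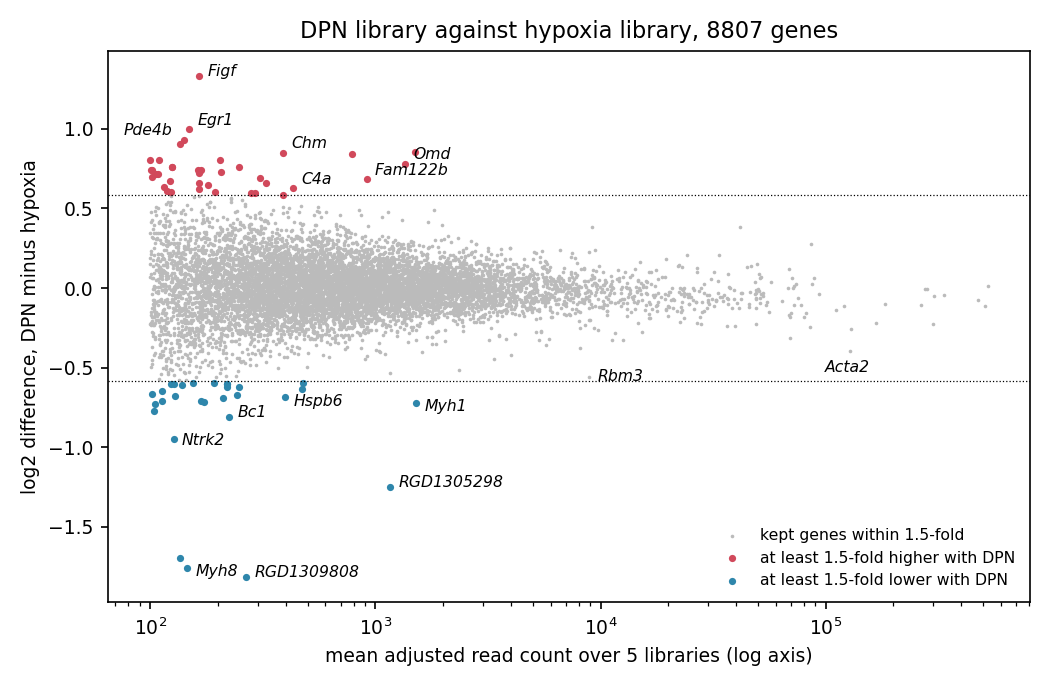
Log2 difference between the DPN and the hypoxia library for each of 8807 genes (vertical axis) against the mean adjusted read count over 5 libraries (horizontal, log axis); 1 point is 1 gene and dotted lines mark 1.5-fold. The cloud narrows as the level rises, and the 38 genes above and 29 below the lines lie mostly at low levels.

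Against the other hypoxic libraries, the DPN library was seldom far apart. At any size of difference it was the highest or lowest of the 4 hypoxic libraries for 39.0% of the genes, against 41.2% for E2, 55.0% for hypoxia alone and 64.0% for In-Cl. In the comparisons of the other 2 compounds with the same hypoxia library, 158 genes (1.79%) were at least 1.5-fold higher and 50 (0.568%) lower with In-Cl, and 45 (0.511%) higher and 47 (0.534%) lower with E2. The 3 comparisons share the hypoxia library, so a value that is unusual in that library enters all of them, and the 3 differences are given side by side below only as values.

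Among signalling genes, Figf, the lymphatic growth factor now named Vegfd, showed the largest difference upward. Its adjusted read count was 353 in the control, 74.6 in hypoxia, 189.6 with DPN, 118 with In-Cl and 88.6 with E2. The control was highest and hypoxia lowest, and DPN was the highest of the 4 hypoxic libraries, 2.52-fold above hypoxia (log2 1.33, 95% counting interval 0.95 to 1.76). The counting interval, on the log2 scale throughout, uses approximate reads, and how much separate cultures vary is not part of it. Egr1, an immediate early transcription factor, had 174 in the control, 88.0 in hypoxia, 177 with DPN, 195 with In-Cl and 107 with E2. DPN thus stood at the level of the control and about 2-fold above hypoxia (log2 interval 0.62 to 1.40), and In-Cl was slightly above it. Pde4b, a phosphodiesterase that degrades cyclic AMP, had 122.73, 98.2, 185, 142 and 131 in the same order of libraries, highest of all with DPN (1.88-fold above hypoxia, log2 interval 0.55 to 1.29).

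Other regulators of signalling were higher by smaller amounts. Spred1, an inhibitor of Ras and MAP kinase signalling, was 113 in hypoxia and 189.6 with DPN (1.68-fold, log2 interval 0.40 to 1.11) but higher again with E2, at 217. Dusp22, a dual-specificity phosphatase, was 232 in hypoxia and 368 with DPN (1.58-fold) and also highest with E2, at 395. Camk2g, the gamma form of calcium/calmodulin-dependent kinase II, was 1548 in the control, 1615 in hypoxia, 2265 with DPN, 1873 with In-Cl and 1798 with E2. For Camk2g the DPN library was the highest of the 5, 1.40-fold above hypoxia with a narrow log2 interval (0.39 to 0.58).

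Chm, an escort protein for the lipid modification of Rab GTPases, had 422 in the control, 248 in hypoxia, 448 with DPN, 467 with In-Cl and 359 with E2, so that hypoxia was the lowest library and DPN was 1.80-fold above it (log2 interval 0.62 to 1.09). The dynein adaptor Bicd1 was 1.75-fold above hypoxia (144 and 252), the kinesin heavy chain Kif5c 1.66-fold (132 and 220.5) and the small GTPase Arl5b 1.67-fold. For Bicd1, Kif5c and Arl5b too, hypoxia was the lowest of the 5 libraries. With E2 Kif5c was higher than with DPN, at 265.5, and Bicd1 was near it, at 233. Of the 35 kept prenylation and Rab cycle genes, Chm was the only one at least 1.2-fold higher and Rab9a (log2 -0.28) the only one lower. The median was 0.03. Among all kept genes 5.93% were higher and 5.09% lower by that fold.

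Omd, a small leucine-rich proteoglycan of the matrix, was 662 in the control, 1068 in hypoxia, 1837 with DPN, 1803 with In-Cl and 1375 with E2. The 3 compound libraries all lay above hypoxia, and DPN was 1.72-fold above it (log2 interval 0.67 to 0.90). Other genes whose counting interval lay far above 0 were Fam122b (1.61-fold) and Plac1 (1.69-fold), which stand next to each other in the files, and RT1-CE3 (1.91-fold), a class I histocompatibility gene with near-identical relatives whose reads the counting could have split. Helz2, among the 6 largest differences, was 1.75-fold higher on the lowest counts (63.1 in hypoxia and 111 with DPN).

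**Figure D2:**
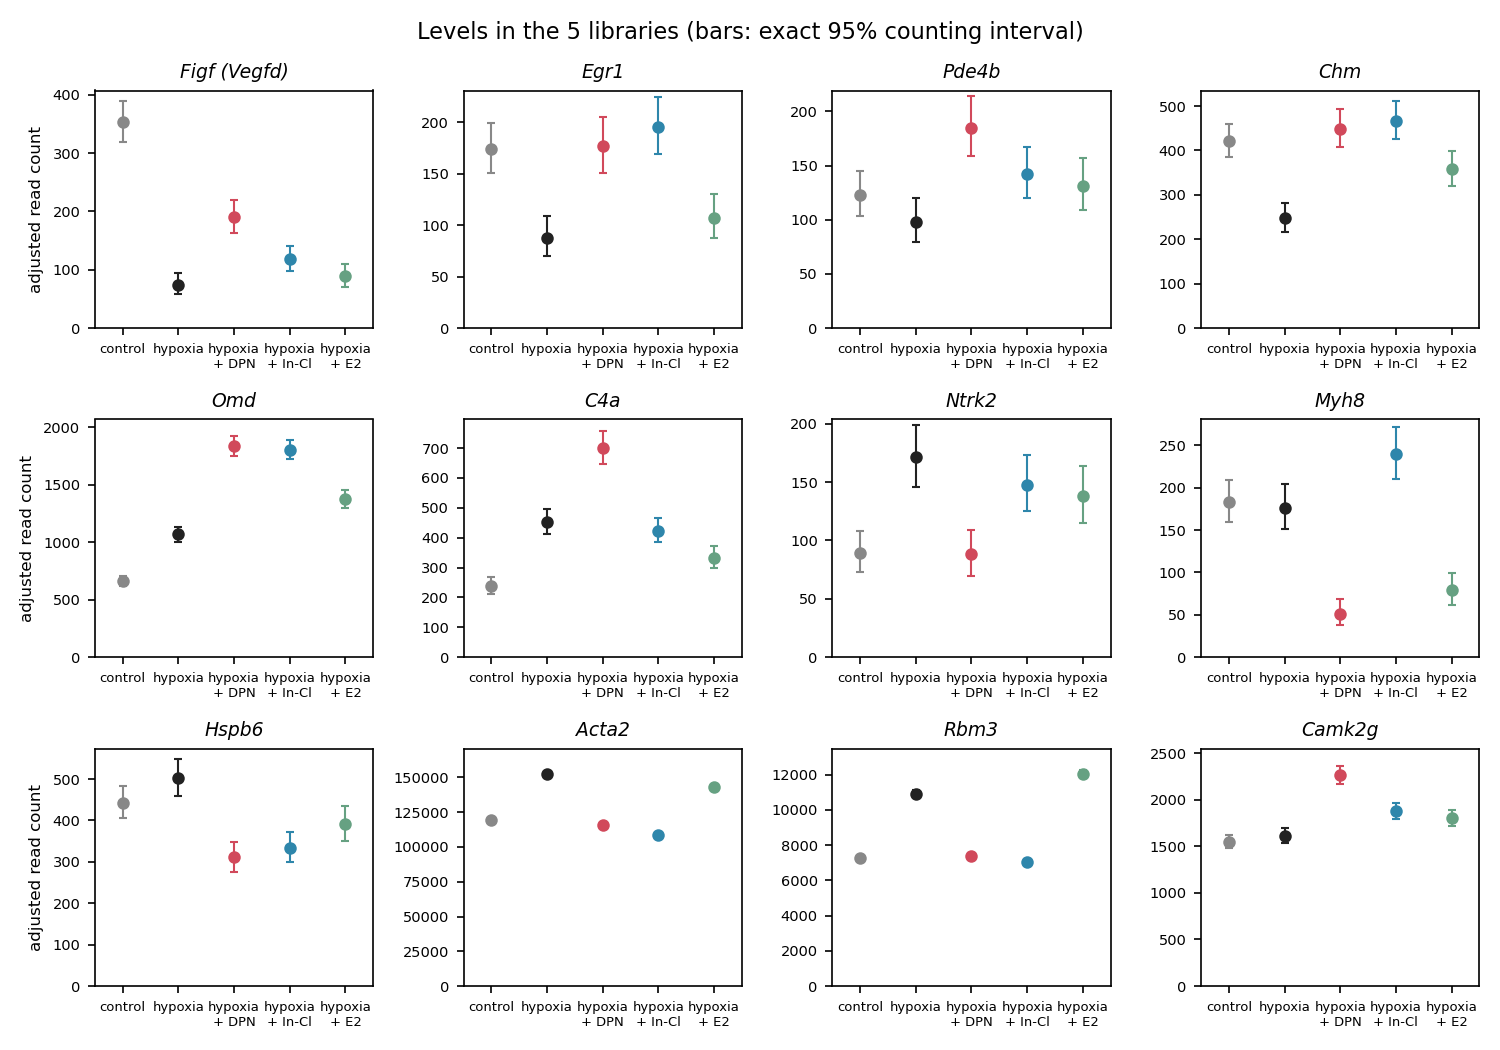
Adjusted read count (vertical axis, from 0) of 12 genes in each of the 5 libraries (horizontal axis); 1 point is 1 library and the bar is its exact 95% counting interval. Figf, Egr1, Pde4b, Chm and Omd lie above hypoxia with DPN, and Ntrk2, Myh8, Hspb6, Acta2 and Rbm3 lie below it.

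On the other side, the genes of sarcomeric myosin heavy chains, motor proteins of skeletal muscle that lie in a cluster, were lower with DPN. Myh8 had 183 in the control, 176 in hypoxia, 51.4 with DPN, 239.8 with In-Cl and 78.7 with E2. DPN was the lowest library, 3.38-fold below hypoxia (log2 -1.76, log2 interval -2.26 to -1.30), E2 was also low, and In-Cl was above hypoxia. Myh4 ran alike (186, 169, 51.4, 212 and 60.1), while Myh1 (1.65-fold lower), Myh3 (1.61-fold) and Myh2 (1.31-fold) differed less. The members of this family share long stretches of sequence, so how the counting assigned reads among them is uncertain. Of the other striated muscle markers kept, skeletal actin Acta1 was at -0.44 and the troponin Tnnc1 at -0.08, and the myogenic factors Myog and Myod1 had 0 to 1 read in both libraries.

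Ntrk2, the receptor of brain-derived neurotrophic factor, was 89.5 in the control, 171 in hypoxia, 88.3 with DPN, 148 with In-Cl and 138 with E2. The DPN library was at the level of the control and 1.93-fold below hypoxia (log2 interval -1.36 to -0.58). Bc1, a short noncoding RNA, was 357 in hypoxia and between 166 and 203 in the other 4 libraries, so here the hypoxia library stood apart. Kif26b, a kinesin family member, was 1.59-fold lower (282 and 176), the receptor phosphatase Ptprq 1.65-fold (209 and 126), and the adhesion molecule Cadm4 1.55-fold (569.9 and 367). Slc25a29, a mitochondrial amino acid carrier, was 1.71-fold lower (133 and 77.6) and Spata24 1.66-fold (126 and 75.5).

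Rbm3, an RNA-binding protein induced by cold, had 7245 in the control, 10921 in hypoxia, 7403 with DPN, 7057 with In-Cl and 12034 with E2. Hypoxia and E2 were high and control, DPN and In-Cl low, and DPN was 1.48-fold below hypoxia (log2 interval -0.60 to -0.52). Cirbp, the other cold-inducible RNA-binding protein, was 450.0, 669.9, 529, 657 and 726 in the same order. With DPN it was 1.27-fold below hypoxia (log2 interval -0.51 to -0.17), whereas In-Cl was near hypoxia. Lsm2, a subunit of the ring that binds U6 small nuclear RNA, was 1.52-fold lower (568 and 374), but the 43 kept Sm, LSm and spliceosome genes had a median of -0.005, with 1 at least 1.2-fold higher (Snrpa1) and 2 lower (Lsm2 and Sf3a2). Of the 47 kept SR, hnRNP and stress-linked RNA-binding genes, 0 were 1.2-fold higher and 3 lower (Rbm3, Cirbp and Rbpms), where 5.93% of all kept genes were higher and 5.09% lower by that fold.

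Few genes separated the DPN library from all 3 other hypoxic libraries by 1.5-fold. It was above all 3 for 4 genes (0.0454%) and below all 3 for 6 (0.0681%). With the 7 left-out neighbouring rows kept, 13 were below all 3. The 4 above were Figf, C4a, Cyp21a1 and S100vp. C4a, a complement component, was 238 in the control, 452 in hypoxia, 699.9 with DPN, 423 with In-Cl and 334 with E2, and its neighbour Cyp21a1, a steroid hydroxylase, was 66.4, 125, 191, 109.5 and 99.2. Both were lowest in the control and highest with DPN, 1.55-fold and 1.53-fold above hypoxia. The RefSeq gene table lists them side by side, and the use of strand in the counting is not given in the sources used here. Whether the 2 genes overlap or share reads was not examined. S100vp, an S100 calcium-binding protein, was 1.68-fold above hypoxia (93.0 and 156).

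The 6 below were RGD1305298, Ntrk2, Myh8, Itpk1, Cyp2t1 and Mcm8. RGD1305298 was 1463 in the control, 1320 in hypoxia, 554 with DPN, 1302 with In-Cl and 1187 with E2, low in the DPN library alone (2.38-fold below hypoxia). Itpk1, an inositol phosphate kinase, was 146 in hypoxia and 95.6 with DPN, Cyp2t1, a cytochrome P450, 131 and 86.1, and the helicase Mcm8 152 and 99.99. At 1.2-fold the DPN library was above all 3 for 54 genes (0.613%) and below for 63 (0.715%). In the same count E2 was above the rest for 37 and below for 77, hypoxia alone for 92 and 176, and In-Cl for 341 and 148. Rasgrp4, a Ras exchange factor, and the kinase Map4k1 stood close together in this group: Rasgrp4 was 1173, 1157, 797, 1500 and 1161, and Map4k1 2363, 2340, 1634, 3044 and 2358, lowest with DPN and highest with In-Cl in both. They lie on either side of Ryr1 in the RefSeq gene table.

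Part of the contractile list was lower with DPN. Among 32 contractile genes measured, 27 were kept, and their median difference was -0.14, with 21 below 0 and 6 above. At least 1.2-fold lower were 8 and 1 was higher, where 5.09% of all kept genes were lower and 5.93% higher. The 8 were Hspb6, Actg2, Acta2, Cnn1, Lmod1, Myl9, Pdlim7 and Tpm2, and the 1 was Pln. The counting interval lay below 0 for 14 of the 27 and above 0 for 2 (over all 8807 genes, 1342 and 1276). For the same 27 genes the median was -0.26 with In-Cl and -0.055 with E2. With the mean of the other 3 hypoxic libraries in place of hypoxia alone, the median with DPN was -0.091.

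Acta2, smooth muscle actin, was 119362 in the control, 152451 in hypoxia, 115616 with DPN, 108399 with In-Cl and 143132 with E2. Hypoxia and E2 were high, DPN and In-Cl were under the control, and DPN was 1.32-fold below hypoxia (log2 -0.40, log2 interval -0.41 to -0.39). The tropomyosin Tpm2 showed the same order of libraries (67284, 80907, 65127, 59104 and 74398). In Myl9, the regulatory light chain of smooth muscle myosin, hypoxia and E2 were again the high pair and DPN lay between them and the control (10861, 14961, 11910, 10831 and 14501). Cnn1, calponin, was 6699, 6229, 4857, 4201 and 6570, below the control in DPN as well. Hspb6, a small heat shock protein that takes part in relaxation, was 443, 502, 311, 334 and 391, lowest of the 5 with DPN. Actg2, gamma smooth muscle actin, was at -0.50 (log2 interval -0.78 to -0.24) but had its lowest value with In-Cl, and against the mean of the other 3 hypoxic libraries its difference was 0.04. Actin genes are near-identical in their coding parts, so reads may have been split among Acta2, Actg2 and Acta1 (-0.44).

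Other members of the programme differed little. Myh11, the smooth muscle myosin heavy chain, was 279.9 in hypoxia and 282 with DPN (log2 interval -0.23 to 0.26), and its kinase Mylk (-0.07), caldesmon Cald1 (0.03) and the coactivator Myocd (-0.07) lay within 1.2-fold. Pln, the calcium pump regulator, was 350.4 in the control, 85.9 in hypoxia, 119 with DPN, 87.7 with In-Cl and 73.2 with E2, higher with DPN than in the other hypoxic libraries (log2 0.47 against hypoxia, log2 interval 0.04 to 0.90). The 43 kept genes of the actin cytoskeleton and focal adhesions had a median of -0.085, with 33 below 0. At least 1.2-fold lower was 1 (Capg, -0.26) and 0 were higher, against 5.09% and 5.93% of all kept genes. Actn4 was at -0.23, Zyx at -0.20 and Tln1 at -0.21, and Pfn2 (0.21) was highest. After quantile normalization the median of these 43 genes was -0.013.

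**Figure D3:**
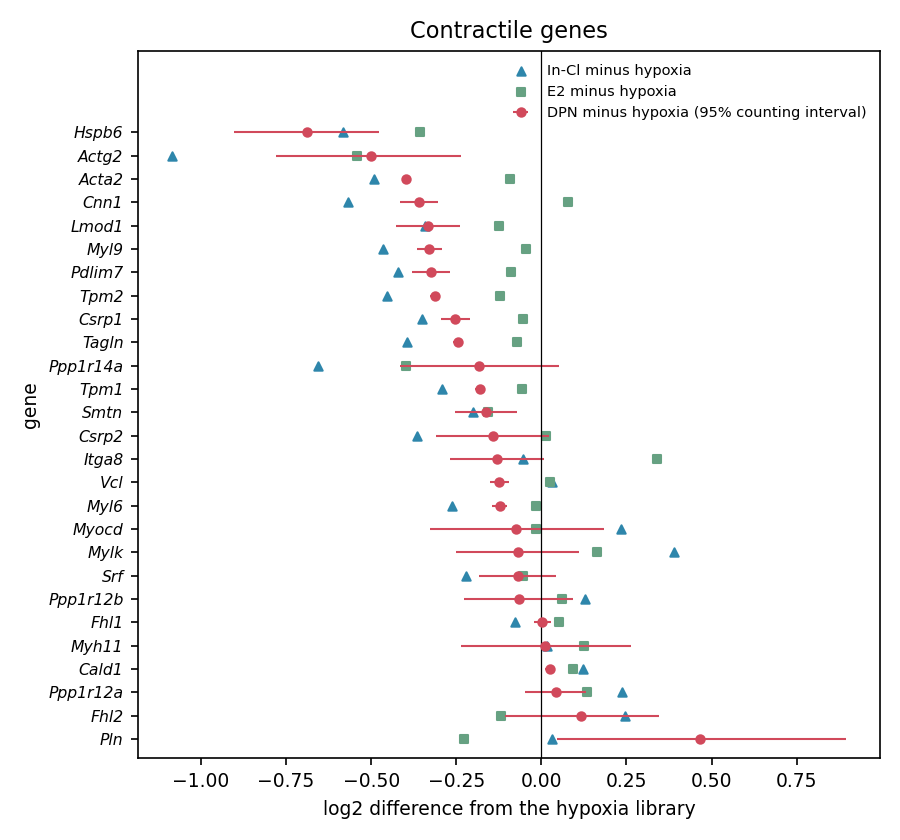
Log2 difference from the hypoxia library (horizontal axis) for the 27 kept contractile genes (vertical axis); circles are DPN with 95% counting intervals, triangles In-Cl and squares E2, all against the same hypoxia library. Of the circles 21 lie left of 0, from Hspb6 at -0.69 to Pln at 0.47 on the right.

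Many contractile genes carry CArG boxes, the sites bound by serum response factor, near their starts, and promoters are shown for 3 of the genes in that list. Promoter windows of 300 bases, 250 before and 50 after the gene's start, were taken from RefSeq (build GRCr8) by symbol. Within a tolerance of 1 mismatch a box of 10 bases was found on 8 of the 22 contractile promoters with a window, on 15.6% of the 7273 kept genes with one and on 21.0% of all 27457 windows. The stretches below are the 140 bases before the start, 5′ to 3′ on the gene's strand, with boxes in capitals. Acta2 lies at chr1:241172504-241172643 (minus strand), Tpm1 at chr8:76543416-76543555 (minus strand) and Cnn1 at chr8:28908297-28908436 (plus strand).
Acta2: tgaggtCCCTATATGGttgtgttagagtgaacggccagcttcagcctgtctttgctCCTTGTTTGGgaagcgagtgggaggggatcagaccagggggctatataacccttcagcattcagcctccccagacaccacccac
Tpm1: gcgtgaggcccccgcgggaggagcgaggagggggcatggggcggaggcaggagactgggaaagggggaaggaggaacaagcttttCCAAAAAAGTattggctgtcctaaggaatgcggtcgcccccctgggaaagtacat
Cnn1: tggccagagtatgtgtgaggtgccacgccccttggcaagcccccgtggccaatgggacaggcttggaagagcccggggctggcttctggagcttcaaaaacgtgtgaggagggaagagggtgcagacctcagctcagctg
Acta2 (-0.40) holds 2 boxes and Tpm1 (-0.18) 1 in the stretch shown, and Cnn1 (-0.36) none. Without a mismatch, 3 of the 22 windows held the box (Srf, Fhl1 and Fhl2), against 1.25% of kept windows and 1.64% of all windows. Srf, Fhl1 and Fhl2 were at -0.07, 0.002 and 0.12. A match is a description of letters and not a bound site. The palindromic estrogen response element GGTCANNNTGACC was in 0 of the 7273 kept promoter windows and in 7 of all 27457 (0.0255%). Its shorter core GGTCA, searched on both strands and contained in the element, was in 12 of the 31 windows of genes at least 1.5-fold higher, in 9 of 27 of those lower and in 36.5% of all kept windows.

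Classic estrogen targets are genes known to respond to the hormone in other tissues. Of 15 kept genes 10 were above 0 (4435 of all 8807), with a median of 0.12, against -0.02 with In-Cl and -0.03 with E2, and 2 were at least 1.2-fold higher and 1 lower (5.93% and 5.09% of all kept genes). Against the mean of the other 3 hypoxic libraries the median was 0.005. Cxcl12, a chemokine, was 7857 in the control, 8011 in hypoxia, 10469 with DPN, 11166 with In-Cl and 8300 with E2. DPN and In-Cl were high and the other 3 libraries were close together, and DPN was 1.31-fold above hypoxia (log2 interval 0.34 to 0.43). Trim25, an estrogen-responsive ubiquitin ligase, was 232 in hypoxia, 288 with DPN, 375 with In-Cl and 319.7 with E2, so that DPN was above hypoxia (0.31) and under both other compounds. Tgfa, an EGF receptor ligand, was lower (-0.33), and Ccnd1 (-0.004), Myc (0.01) and Rara (-0.13) were within 1.2-fold. The progesterone receptor Pgr and Greb1 were not among the kept genes.

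Among receptors, chaperones and coregulators, 5 of 36 kept genes were at least 1.2-fold higher and 0 lower (5.93% and 5.09% of all kept genes), with a median of 0.05 (0.000 against the mean of the other 3 hypoxic libraries). The orphan nuclear receptor Nr2c2 was 279.7 in the control, 284 in hypoxia, 405 with DPN, 541 with In-Cl and 428 with E2, above hypoxia with all 3 compounds and least so with DPN (1.42-fold). The other 4 were Zdhhc21, a palmitoyltransferase (0.33), the membrane scaffold Strn (0.31), the mediator subunit Med1 (0.30) and the coactivator Ncoa2 (0.28). Against the mean of the other 3 hypoxic libraries Zdhhc21 (-0.12), Med1 (-0.002) and Trim25 (-0.07) lay below 0.

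Prostanoid genes, among them the cyclooxygenase of the series title, had a median of -0.155 over 17 kept members, with 1 at least 1.2-fold higher and 3 lower (5.93% and 5.09% of all kept genes). Against the mean of the other 3 hypoxic libraries the median was -0.006. Ptgs2, cyclooxygenase-2, was 111 in the control, 258 in hypoxia, 222 with DPN, 218 with In-Cl and 306 with E2, with the control lowest. Between DPN and hypoxia its difference was -0.22, and the interval included 0 (-0.49 to 0.05), so no difference was detectable at this depth. Pla2g4a, the phospholipase that releases arachidonic acid, was 417 in the control, 277 in hypoxia, 219 with DPN, 221 with In-Cl and 266 with E2, lowest with DPN and In-Cl (DPN 1.26-fold below hypoxia, log2 interval -0.61 to -0.07). Cbr1, a carbonyl reductase, was 5579 in hypoxia and 4167 with DPN, but lower again with In-Cl (3052) and E2 (2816), and Tbxa2r, the thromboxane receptor, was at -0.27. Abcc4, a transporter that exports prostaglandins and cyclic nucleotides, was 1.31-fold higher (157 and 206).

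In the list of vasoactive receptors and cyclic nucleotide genes, 3 of 16 kept members were at least 1.2-fold higher and 0 lower, where 5.93% and 5.09% of all kept genes were. The 3 were Pde4b, the guanylate cyclase subunit Gucy1b3 and Rgs2. Gucy1b3 was 492 in the control, 301 in hypoxia, 419 with DPN, 479 with In-Cl and 343 with E2, lowest in hypoxia and 1.39-fold above it with DPN (log2 interval 0.26 to 0.70). Rgs2, which dampens G protein signalling, was at 0.28 with an interval that included 0. Of 36 calcium channel, pump and store genes 3 were higher by that fold (Camk2g, the channel Trpc1 at 0.42 and the pump Atp2b4 at 0.34) and 0 lower, a count near the 5.93% of all kept genes, around a median of 0.02 (-0.030 against the mean of the other 3 hypoxic libraries).

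Growth factor genes held some of the largest single differences in both directions. Of 32 kept PDGF, FGF and related genes 6 were at least 1.2-fold higher (Figf, Spred1, Pdgfd, Nrp2, Spred2 and Fgf16) and 1 lower (Ntrk2), against 5.93% and 5.09% of all kept genes, with a median of 0.05 (-0.009 against the mean of the other 3 hypoxic libraries). Pdgfd, a ligand of PDGF receptor beta, was 181 in hypoxia and 244 with DPN, the highest of the 5 libraries, and Nrp2, a coreceptor of Figf and semaphorins, was 299 and 398. Vegfa, the hypoxia-induced growth factor, was 12563 and 12442 (log2 interval -0.05 to 0.02). The list of plexin, semaphorin, ephrin and Slit genes also holds netrin, Unc5, Robo, neuropilin, Dcc, Cxadr and Cadm genes. Of its 32 kept members 7 were higher and 2 lower by 1.2-fold (all kept genes, 5.93% and 5.09%), with a median of 0.11. The 7 were Plxna3 (0.52), Ntn4 (0.44), Cxadr (0.42), Robo1 (0.42), Nrp2, Sema3e (0.35) and Slit3 (0.30), and the 2 were Cadm4 and Sema4b (-0.40). For these 32 the median was 0.25 with In-Cl and 0.08 with E2. With DPN it was -0.001 against the mean of the other 3 hypoxic libraries and 0.024 with no filter on low values.

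Matrix genes went both ways. Of 19 kept proteoglycan genes 3 were at least 1.2-fold higher and 3 lower, where 5.93% and 5.09% of all kept genes were. The 3 higher were small leucine-rich proteoglycans: Omd, Fmod and Ogn. Fmod was 926 in the control, 925 in hypoxia, 1259 with DPN, 1438 with In-Cl and 799 with E2, and Ogn 34828, 36942, 48274, 45481 and 41880. DPN was 1.36-fold and 1.31-fold above hypoxia, and with E2 Fmod was under hypoxia. The other small leucine-rich members kept were not higher by that fold, and Lum was at 0.08. The 3 lower were Acan (-0.58), Spock2 (-0.38) and the tenascin Tnc (-0.27). Fibronectin, Fn1, was 224599, 319619, 272707, 357107 and 326109 in the same order of libraries, lower with DPN than in the other hypoxic libraries (log2 -0.23 against hypoxia).

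Of 16 kept collagen chains 0 were higher and 1 lower by 1.2-fold (Col18a1, -0.32), and Col1a1 was at -0.11. Of 16 integrin and laminin chain genes 4 were lower, Lamb3 (-0.31), the nidogen Nid2 (-0.30), Lama1 (-0.30) and Lama5 (-0.28), and 0 were higher (all kept genes, 5.09% lower and 5.93% higher), with a median of -0.11 against 0.14 with In-Cl and 0.03 with E2. With no filter on low values the median with DPN was 0.056. In the elastic fibre list 2 of 24 kept genes were at least 1.2-fold higher, Crispld2 (0.59) and Fras1 (0.31). Lower by that fold were 2, Mfap5 (-0.38) and Fbn2 (-0.27), against 5.93% of all kept genes higher and 5.09% lower. The median of the 24 was -0.062, with 16 below 0 and 8 above. Serpine2, an inhibitor of thrombin and plasminogen activators, was 1.60-fold lower (159 and 98.8), and Thbd, thrombomodulin, was 1.36-fold higher (497 and 676).

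Inflammatory genes had a median of 0.11 over 17 kept members, with 4 at least 1.2-fold higher and 0 lower, where 5.93% and 5.09% of all kept genes were. Against the mean of the other 3 hypoxic libraries the median was 0.051. They were Nfkbiz (0.43) and Nfkbia (0.33), both regulators of NF-kappaB, the growth factor Csf1 (0.32) and Cxcl12. Nfkbiz was 146 in the control, 218 in hypoxia, 294 with DPN, 246 with In-Cl and 195 with E2, highest of the 5 with DPN. By the same fold and against the same shares, 0 of 19 interferon genes were higher and 3 lower, Ifit2 (-0.40), the class I gene RT1-A2 (-0.31) and the immunoproteasome subunit Psmb10 (-0.28). Of 29 immediate early and KLF genes 2 were higher by that fold, Egr1 and Klf15 (0.46), and 0 lower, and Jun (0.15) and Klf4 (-0.01) were within it.

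Genes of the response to hypoxia differed little between the libraries with and without DPN. Of 44 kept hypoxia response genes 2 were at least 1.2-fold higher and 3 lower, where 5.93% and 5.09% of all kept genes were, with a median of -0.02. The 2 were Hif1an, the asparaginyl hydroxylase of hypoxia-inducible factor (0.38), and Tfrc, the transferrin receptor (0.30). The 3 were Ndrg2 (-0.40), Car12 (-0.37) and Tgfb3 (-0.28). Ndrg2 was 21.0 in the control, 453 in hypoxia, 343 with DPN, 465 with In-Cl and 425 with E2, so DPN was the lowest of the 4 hypoxic libraries and still far above the control. By the same fold and against the same shares, 1 of 32 glycolysis genes was higher, the lactate and pyruvate transporter Slc16a1 (0.32), and 0 lower. Of the 32, 24 lay below 0 around a median of -0.05 (-0.023 after quantile normalization), with Gapdh at -0.22.

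Genes of protein synthesis and respiration had medians just under 0. The counts in this paragraph stand against 5.93% of all kept genes higher and 5.09% lower by 1.2-fold. The 79 kept cytosolic ribosomal protein genes had a median of -0.065, with 71 below 0 and 0 past 1.2-fold either way, and the 69 mitochondrial ones a median of -0.07 with 5 lower (Mrps11 at -0.41) and 1 higher. The 84 respiratory chain and ATP synthase genes had a median of -0.04, with 2 lower (Ndufaf6, an assembly factor, at -0.34 and Ndufa11 at -0.28) and 0 higher. Against the mean of the other 3 hypoxic libraries these 3 medians turned positive, to 0.052, 0.020 and 0.047, and after quantile normalization the median of the cytosolic ribosomal protein genes was -0.010. Cell division genes had medians near 0: of 36 replication genes 1 was higher and 3 lower (median -0.01) and of 36 mitosis genes 2 were higher and 0 lower (median -0.01). Endoplasmic reticulum chaperones had a median of 0.05 with Dnajb9 (0.45) the only member past 1.2-fold, and cholesterol and fatty acid synthesis a median of -0.006, with Elovl6 (0.33) highest and Tm7sf2 (-0.48) lowest.

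**Figure D4:**
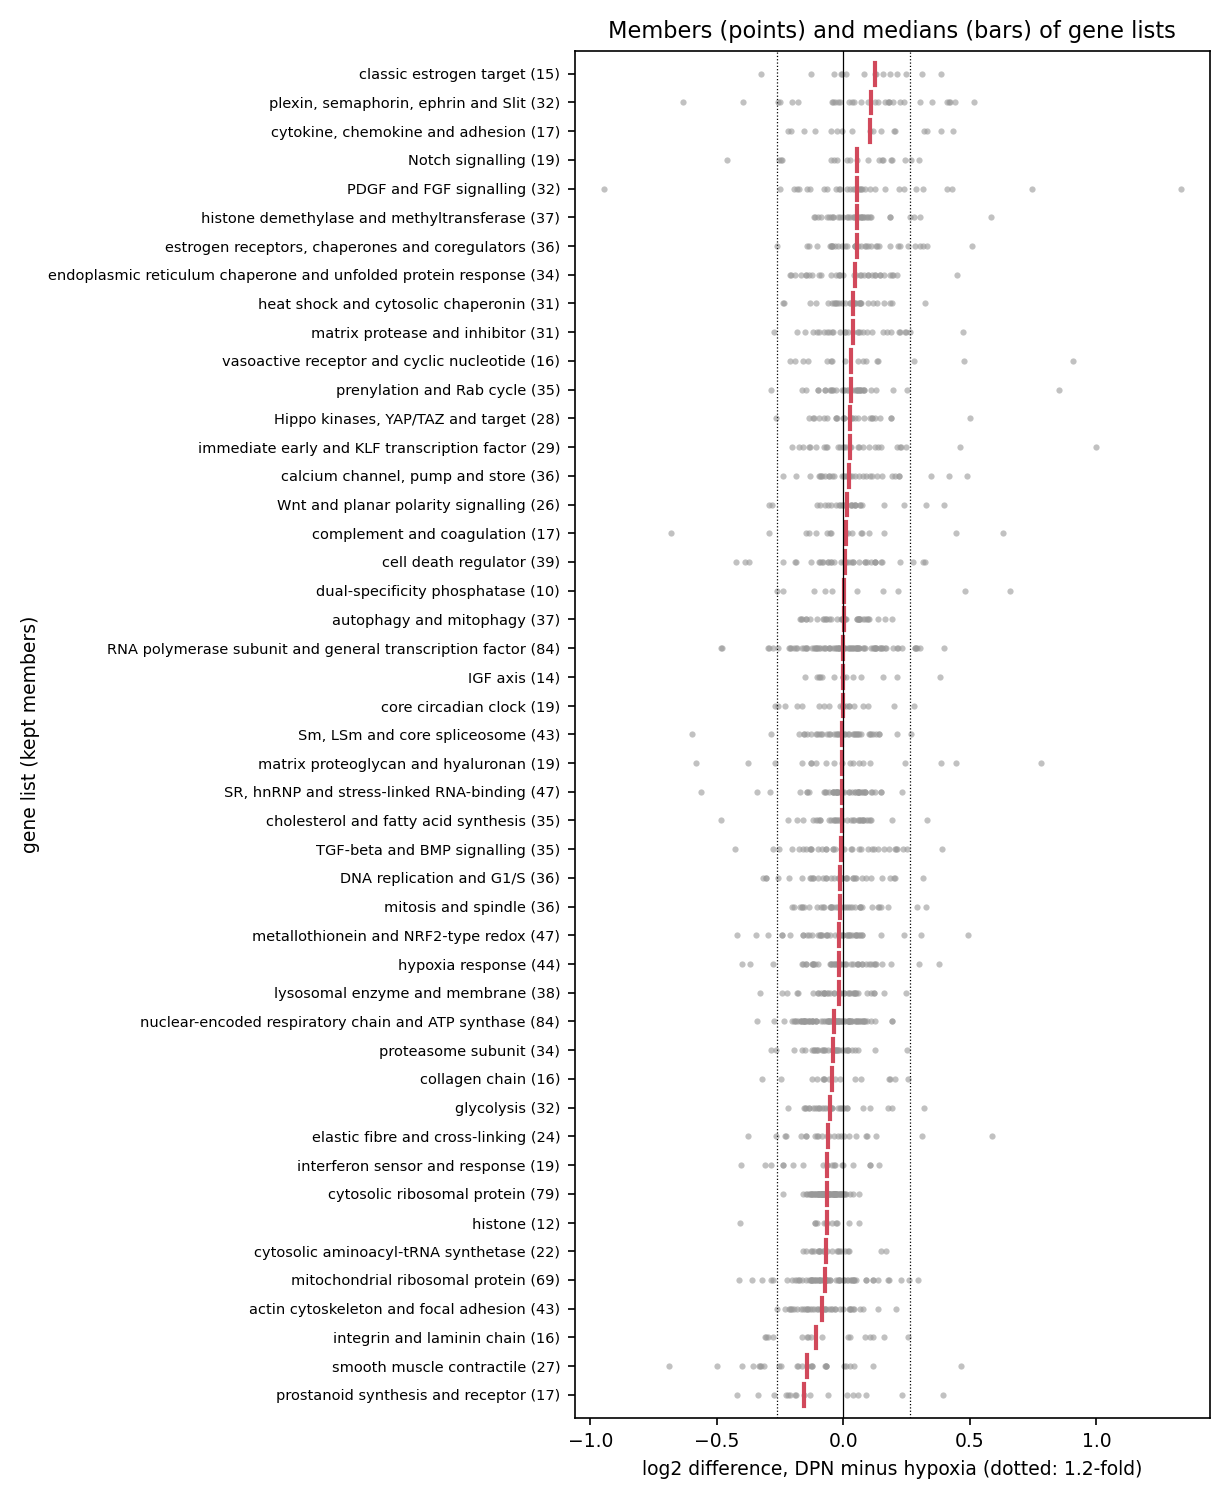
Log2 difference between the DPN and the hypoxia library (horizontal axis) for the members of each gene list with at least 10 kept genes (vertical axis, number kept in brackets); points are genes, bars are medians and dotted lines mark 1.2-fold. Medians run from -0.155 for prostanoid genes and -0.14 for contractile genes to 0.12 for classic estrogen targets, all inside the dotted lines.

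Single regulators of growth and survival also differed. Mob1b, a kinase adaptor of the Hippo pathway, was 1.42-fold higher (314 and 445), the methyltransferase Setd7 was at 0.58 on the log2 scale (293 and 439.8) and Sesn3, a sestrin, 1.41-fold (658 and 926). For Mob1b, Setd7 and Sesn3 In-Cl was higher than DPN. Fstl3, an activin antagonist, was -0.43 and the TGF-beta receptor Tgfbr2 0.39, and the necroptosis kinase Ripk3 (-0.39), the DNA damage gene Gadd45a (-0.37) and the quinone reductase Nqo1 (-0.34) were lower.

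Markers of other cells were compared as sums of adjusted read counts. Summed over each list, endothelial markers were 2099 in hypoxia and 1991 with DPN (6 of 18 at 0 in every library), leukocyte markers 237.4 and 225.1 (9 of 17 at 0 in every library), epithelial markers 824.5 and 705.8, adipocyte markers 231.4 and 306.9, glial markers 2313 and 2490, and fibroblast markers 14283 and 13196. Striated muscle markers summed to 13428 in the control, 12359 in hypoxia, 9689 with DPN, 9565 with In-Cl and 11108 with E2. Of the 25 markers 5 were at 0 in every library. Of the 7 kept, 6 were at least 1.2-fold lower with DPN than in hypoxia, against 5.09% of all kept genes. The 6 were Acta1, Myh1, Myh2, Myh3, Myh4 and Myh8, and how reads were assigned among the Myh genes is uncertain. Ckm, muscle creatine kinase, had 0 reads in hypoxia and 5 with DPN. The part of other cells in the differences above was not tested.

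Gene span, the distance between a gene's ends in the RefSeq table (build GRCr8), moved with the differences. It was known for 8693 of the 8807 genes (98.7%). In the first of 5 equal groups by span, the shortest (median 4.6 kb) the median difference with DPN was -0.044, and it ran through -0.019, -0.004 and 0.034 to 0.044 in the group with the longest (111.3 kb). At least 1.2-fold higher were 58 of 1739 genes in the shortest group and 174 of 1739 in the longest, and at least 1.2-fold lower 128 and 62. Over the same groups the median ran from -0.143 to 0.148 with In-Cl and from -0.068 to 0.081 with E2. Across genes, which are not independent replicates, Spearman's rho between span and difference was 0.21 for DPN, 0.43 for In-Cl and 0.33 for E2, with the hypoxia library shared by all 3. The ribosomal protein genes have a median span of 3.1 kb and the plexin and semaphorin list 42.7 kb, and their median differences were -0.065 and 0.11, while the span of the contractile list (22.3 kb) is near the median of all genes (23.4 kb). The part of span in any one difference was not tested.

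**Figure D5:**
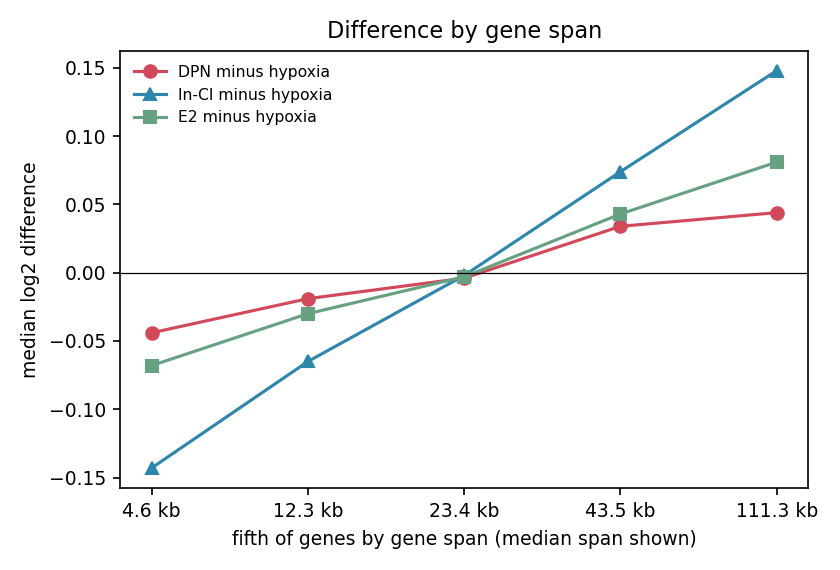
Median log2 difference from the hypoxia library (vertical axis) in 5 equal groups of genes by gene span (horizontal axis, median span in kilobases); circles are DPN, triangles In-Cl and squares E2. The DPN line is the flattest of the 3, from -0.044 to 0.044.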

How the data were processed

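RNA from 5 cultures of rat vascular smooth muscle cells was sequenced after a stranded library preparation, per the labels' protocols. Per the submitters' processing notes TopHat, edgeR and the rn6 build were used; no source used here names the counting program, the annotation or the use of strand. The authors deposited log2 values of an adjusted read count plus 1, per the file headers and values. Levels were recomputed as 2 to the power of the value, minus 1. Approximate reads are a level divided by the level of 1 read in that library (0.848 to 1.095), and the exact 95% Clopper-Pearson and Poisson intervals cover counting error only. Genes with a mean level of 100 or more were kept. With 1 library a condition no test was possible; folds of 1.5 and 1.2 were used to count genes. The members and the 54 gene lists were chosen with earlier results of these data known. Named genes are the 15 highest and 15 lowest by interval bound, the 6 by difference, those apart from all 3 other hypoxic libraries and the 2 highest and lowest of each list, as space allowed; other genes, including those that complete a count or serve as landmarks, were chosen after their values were seen. Promoters were matched to RefSeq (GRCr8) by symbol. Python 3.11.15, numpy 2.4.6, pandas 2.3.3 and scipy 1.17.1 were used, and the interval calculation was tested on simulated data. The alternatives tried were pseudocounts, filters, folds, centring, quantile normalization, the 7 neighbouring rows and another reference.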

Additional observations from a re-analysis of the deposited data

How the results depend on the processing

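The main counts were 38 genes at least 1.5-fold higher with DPN, 29 lower, 4 above all 3 other hypoxic libraries and 6 below all 3. They were 38, 29, 4 and 6 after median centring and 39, 30, 4 and 5 after quantile normalization. In the same order they were 9, 5, 1 and 1 with a mean level of 300 or more, 112, 114, 15 and 30 with 30 or more, and 917, 991, 355 and 281 with no filter. At 2-fold they were 1, 4, 0 and 1, and at 1.2-fold 522, 448, 54 and 63. A pseudocount of 10 left 2 above and 2 below all 3. Keeping the 7 neighbouring rows gave 36 lower and 13 below all 3, with 38 higher and 4 above all 3 as before. The left-out rows thus lay on the low side with DPN. Against the mean of the 3 other hypoxic libraries in place of hypoxia alone, 11 genes were higher and 19 lower. Of 225 named genes, 12 that were past 1.2-fold with an interval off 0 changed sign, all against that mean: Actg2 (0.041), Adamts9 (-0.058), Cbr1 (0.198), Egfl7 (0.027), Fras1 (-0.072), Lnpep (-0.233), Med1 (-0.002), Notch4 (0.425), Pofut1 (-0.004), Tp53inp1 (-0.048), Trim25 (-0.073) and Zdhhc21 (-0.118). Against the same mean another 90 of the 225 were counted as moved from their main value, short of such a change of sign. After quantile normalization 16 were counted as moved. With median centring or a pseudocount of 10 all 225 were counted as the same. The cause of these changes was not tested. No paired analysis was possible because each group is 1 library, and for the same reason no library could be left out of its group. Depth limits genes under a level of 300 most, where the differences were widest.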

Other observations

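Some genes past 1.5-fold stood near each other in the files: 12 of the 67 had another within 3 rows, in 7 pairs. No like count was made for genes within 1.5-fold, so this count has no reference. Beside the Myh cluster, Oxsm (0.60) stood next to Slc4a7 (0.60), and RT1-CE3 and Lsm2 stood together with opposite signs. RGD1309808 (-1.819), the lowest difference of all kept genes, stood 2 rows from Apol9a (-0.625).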
